A study of Mus musculus with 14 samples.

Results

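The genotype-by-injury interaction is the difference between 2 injury responses of the mouse spinal cord. For each gene it is the change on injury in cords labelled AstroCSF1KO minus the change on injury in Control cords. It was taken over every gene of the deposited table that reached 1 FPKM (fragments scaled to gene length and library size, the authors' unit) in at least 3 libraries, which kept 15155 of 56748 genes, 13098 of them protein coding. All 14 libraries of the study enter it, 1 per sample of bulk spinal cord RNA: 4 AstroCSF1KO with spinal cord injury (SCI), 3 AstroCSF1KO without injury, 4 Control with SCI and 3 Control without injury. Injured cords were sampled 7 days after SCI around the lesion and uninjured cords at a level described as matching. Whether the levels matched was not tested. AstroCSF1KO carries, per the labels, a deletion of CSF1 in astrocytes. The labels used here do not give the strain, the Cre driver, the deleted exons, the age or the kind of lesion. A positive interaction means a larger rise, or a smaller fall, in the labelled-knockout cords. Changes are differences of mean log2(FPKM + 1), so the change of a gene with a low level is understated, and a gene is called at a limma adjusted p under 0.05 over all genes tested.

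Spinal cord injury kills neurons and oligodendrocytes, draws monocytes from the blood and turns resident microglia and astrocytes into reactive cells that surround the lesion. CSF1 is a secreted ligand of the receptor CSF1R, which microglia and macrophages need to survive and divide. IL-34 is the other ligand of that receptor. Type I interferons such as interferon beta act through a receptor present on nearly all cells and switch on a set of antiviral genes, the interferon-stimulated genes. The interaction asks which injury responses are shared by the genotypes and which differ between them.

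Across all genes the responses of the genotypes lay close to each other, and no interaction was called. The smallest adjusted p of the interaction was 0.9999852, and 91 genes (0.600%) had an unadjusted p under 0.05, 56 (0.370%) with a higher and 35 (0.231%) with a lower response in labelled-knockout cords. Without any interaction a share of 0.05 of genes would be expected on average at that threshold. The share found lies far below it, so the lack of calls does not show that the responses are alike. It was 14.2% without 3 Control libraries described below. The limma-voom fit of recovered reads also called 0 interactions. The injury response itself was large in both genotypes. In labelled-knockout cords 1141 genes (7.53%) were called and in Control cords 1073 (7.08%). Of these, in labelled-knockout cords 836 (5.52%) rose and 305 (2.01%) fell, and in Control cords 789 (5.21%) rose and 284 (1.87%) fell. The same direction was called in both genotypes for 830 genes (5.48%), 646 higher (4.26%) and 184 lower (1.21%), which is 72.7% of the labelled-knockout calls and 77.4% of the Control calls. These counts rest on a spread shared by the genotypes, although Control libraries vary more. Fitted on the libraries of each genotype alone, 6943 genes were called in labelled-knockout and 158 in Control cords, 157 in both. The near-equal counts and their overlap therefore depend on the shared spread. The falls were the less stable calls: with a replicate block 160 fell in labelled-knockout and 146 in Control cords, 86 in both. No gene was called in both with opposite signs. Over all genes tested, 12177 (80.3%) had responses of the same sign in both genotypes. Of the 311 genes called in labelled-knockout cords alone, 309 moved to the same side of 0 in Control cords, and 13 had an unadjusted interaction p under 0.05. Of the 243 called in Control cords alone, 241 lay on the same side of 0 in labelled-knockout cords, and 11 had such a p. A call in 1 genotype is therefore not by itself a difference between genotypes.

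**Figure D1:**
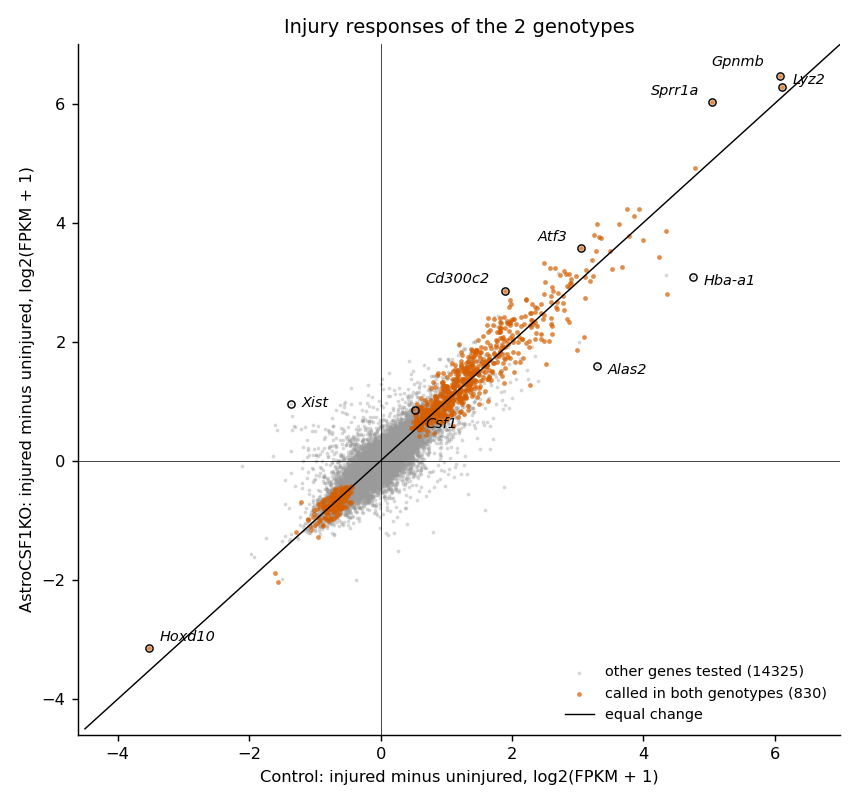
Injury response of each of 15155 genes in labelled-knockout cords (vertical) and Control cords (horizontal), as injured minus uninjured mean log2(FPKM + 1). Orange points are the 830 genes called in both genotypes, the line marks equal change, and the labelled genes are named in the text; Sprr1a and Cd300c2 lie above the line and the haemoglobin gene Hba-a1 and Alas2 below it.

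Over all genes the 2 responses had a Pearson r of 0.874 and a Spearman rho of 0.799. These are descriptions across genes, which are not independent replicates; the 2 responses share no library. The interaction had a median of 0.02, quartiles of -0.12 and 0.15, and 5th and 95th percentiles of -0.38 and 0.39 log2 units. Among the 646 shared rises the median response was 1.32 in labelled-knockout and 1.27 in Control cords, and among the 184 shared falls -0.70 and -0.69. An interaction of at least 1 log2 unit in either direction was estimated for 142 genes (0.937%). Its precision was limited: the median standard error was 0.37, and the 95% interval lay within 1 log2 unit of 0 for 7981 genes (52.7%), among them 441 of the 646 shared rises and 181 of the 184 shared falls. For the other genes a difference of 2-fold between the responses was not outside the interval.

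The targeted gene was examined first as a check of the labels. Csf1 (ENSMUSG00000014599, chromosome 3, 107648364 to 107667785 of mm39, minus strand) stood at 19.9, 16.4, 18.6 and 19.2 FPKM in injured and 8.23, 10.3 and 11 FPKM in uninjured labelled-knockout cords. In Control cords it stood at 7.95, 17.6, 18.3 and 10.4 FPKM with injury and 4.24, 11.9 and 12.2 FPKM without. The 4 injured labelled-knockout libraries lay above the 3 uninjured ones, whereas the Control groups overlapped. The changes on injury were 0.85 ± 0.33 and 0.52 ± 0.33 log2 units (SE) in labelled-knockout and Control cords, neither called, and the interaction was 0.33 ± 0.47 (SE). Its exact two-sided permutation p, over all 1400 ways of exchanging genotype labels within injured and within uninjured libraries, was 0.563, and 0.00143 is the smallest this design gives. Without Control uninjured replicate 1 the interaction was 0.77, with an exact permutation p = 0.0229. That fit keeps Control SCI replicates 1 and 4, which stand apart in the same way and had the lowest injured values. With all 3 of these Control libraries left out, the interaction was 0.31, with an exact permutation p = 0.113. Among injured libraries the labelled-knockout values overlapped the Control values. Among uninjured ones the 3 labelled-knockout values lay below Control replicates 2 and 3 and above Control replicate 1, which stands apart from the other libraries as described below, so that the means of 9.87 ± 1.45 and 9.46 ± 4.52 FPKM (SD, n = 3 each) rest on it. Csf1 therefore did not settle the check, and every direction between genotypes rests on the labels. FPKM covers the whole gene and every cell of the tissue, so the deletion in astrocytes was not tested by it.

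Libraries differed in ways the groups do not explain. Recovered reads came to 13263610 to 21969581 per library. In 3 Control libraries (SCI replicates 1 and 4 and uninjured replicate 1) only 1.45 to 2.06% of detected genes had exactly 1 read, against 8.44 to 11.6% in the other 11, and mitochondrially encoded genes took 6.73 to 13.9% of reads, against 3.38 to 5.78%. Genes of rRNA took 2.89 to 3.99% in labelled-knockout SCI replicates 2, 3 and 4 and uninjured replicate 3, whereas the remaining 10 libraries had 0.290 to 0.764%. The median standard deviation of a gene within a group was 0.12 and 0.10 log2 units in injured and uninjured labelled-knockout libraries, against 0.44 and 0.46 in Control libraries. Without the 3 Control libraries the Control values were 0.08 and 0.10. Neuronal Snap25 (at least 181 FPKM), oligodendrocyte Mbp (at least 341 FPKM) and astrocyte Gfap (at least 187 FPKM) were high in every library, as spinal cord tissue would have them, and the liver gene Alb reached at most 3.79 FPKM. The sex read from Xist and Ddx3y was mixed in all 4 groups and is not balanced between them.

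These libraries decide how finely the interaction can be read. Without the 3 Control libraries that stand apart, 7126 genes were called on injury in labelled-knockout cords (3082 higher, 20.3%, and 4044 lower, 26.7%) and 5106 in Control cords (2389 higher, 15.8%, and 2717 lower, 17.9%), 4085 in both with the same sign (1909 higher, 12.6%, and 2176 lower, 14.4%), among them 824 of the 830 above. The number of interactions called was still 0, with a smallest adjusted p of 0.310, but 2158 genes (14.2%) had an unadjusted p under 0.05, 960 higher (6.33%) and 1198 lower (7.90%), and 47.0% of all genes had an interaction above 0. The 95% interval then lay within 1 log2 unit for 13137 genes (86.7%). The sex read from RNA in that fit was male in both injured and female in both uninjured Control libraries. Sex and the Control injury response, and so the interaction, cannot be told apart in the fit without the 3. All 91 genes with an unadjusted p under 0.05 over the 14 libraries kept the sign of their interaction. They were chosen by values that mostly enter this fit again, so the kept sign is not independent support. Without the 4 rRNA-rich libraries, SCI replicate 1 is the only injured labelled-knockout library left. Every estimate of that fit for injured labelled-knockout cords rests on it. The Pearson r of the responses of the genotypes was then 0.854. With both sets left out, 1 injured labelled-knockout library remains, which is then assumed to vary like the others, and 4 interactions were called: Xist and Gm49980 higher and the Y-linked genes Ddx3y and Eif2s3y lower. In that setting all 3 labelled-knockout libraries and both injured Control libraries had Y-linked RNA and both uninjured Control libraries had Xist, so sex and the interaction cannot be told apart there.

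Of the 10 genes named for the largest rises in both genotypes, most are genes of phagocytes, the cells that engulf debris; the others include Sprr1a (6.03 in labelled-knockout and 5.04 in Control cords), a gene of injured neurons, and Col3a1 (3.86 and 4.34), a collagen. In bulk tissue a higher level may come from more cells of a type or more RNA per cell, and the 2 cannot be told apart. Of 20 general phagocyte genes kept, 19 rose in labelled-knockout and 18 in Control cords, 18 in both, with median responses of 3.04 and 2.94 log2 units and a median interaction of 0.12 (all genes tested: 5.52% and 5.21% rose, median interaction 0.02). Lyz2, the lysozyme of macrophages and neutrophils, reached 1132, 1003, 709.6 and 519 FPKM in injured and 10.6, 11.1 and 7.07 FPKM in uninjured labelled-knockout cords. Its Control levels were 784, 530.3, 694 and 944 FPKM with injury and 9.15, 11.2 and 8.21 FPKM without. Its responses were 6.27 and 6.11 log2 units in labelled-knockout and Control cords, and its interaction was 0.16 ± 0.40 (SE). Gpnmb, a membrane glycoprotein of lipid-laden phagocytes, changed by 6.45 and 6.07, with an interaction of 0.38 ± 0.42. The other shared rises among the 10 were Cd68, a lysosomal protein of phagocytes (4.91 in labelled-knockout and 4.79 in Control cords), Clec7a, the receptor dectin-1 (4.23 and 3.93), Mpeg1, the pore-forming perforin-2 (4.12 and 3.86), Lgals3, galectin-3 (4.22 and 3.76), Wfdc17 (3.77 and 3.79) and Tyrobp, the signalling adaptor DAP12 (3.71 and 3.99). In each of these the injured and uninjured libraries of both genotypes did not overlap, as for 7686 (50.7%) of all genes tested in labelled-knockout cords, 1902 (12.6%) in Control cords and 1611 (10.6%) in both.

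Microglial genes rose in part. Of 18 homeostatic microglial genes kept, 11 rose in each genotype and the same 11 in both, with medians of 1.36 and 1.11 and a median interaction of 0.16; without the 3 Control libraries 17 and 15 rose, 15 in both. Csf1r, the receptor of CSF1 and IL-34, stood at 58.4, 60.7, 59.5 and 60.9 FPKM in injured and 12.9, 15.2 and 14 FPKM in uninjured labelled-knockout cords, against 36.8, 57.4, 63 and 30.2 FPKM in injured and 6.02, 14.9 and 15 FPKM in uninjured Control cords. It rose by 2.02 and 1.92 log2 units, and its interaction was 0.10 ± 0.43 (SE). Cx3cr1, the fractalkine receptor, rose by 2.23 and 1.82, and Fcrls by 3.79 and 3.26. P2ry12, a purinergic receptor of resting microglia, was not called in either genotype (1.03 and 0.75), nor was Tmem119 (1.42 and 0.80). For Tmem119 the interaction was 0.62 over all libraries and -0.19 without the 3 Control libraries. Damage-associated microglial genes, a set that microglia express around lesions and plaques, had 18 of 25 called higher in labelled-knockout and 17 in Control cords, 17 in both, with medians of 2.29 and 2.48. The median interaction of the list was nevertheless 0.16, with 20 of 25 interactions above 0. Cst7, cystatin F, changed by 3.98 and 3.29 with an interaction of 0.68 ± 0.38 (SE), and Trem2, a lipid receptor, by 3.32 and 2.49.

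Among the 11 kept genes of the CSF1 axis, which lists the ligands, their receptors and downstream factors, 8 rose in labelled-knockout and 7 in Control cords, 7 of them in both. The second ligand, Il34, was not called in either genotype (-0.01 and 0.12). The largest interactions there were those of Csf3r, the receptor of granulocyte colony-stimulating factor (2.41 and 1.64, interaction 0.77 ± 0.46), Csf2ra, the alpha chain of the granulocyte-macrophage factor's receptor (1.44 and 0.87, interaction 0.57 ± 0.54), and Csf2rb, its signalling beta chain (1.48 and 0.95, interaction 0.52 ± 0.33). Without the 3 Control libraries those interactions were 0.26, 0.08 and 0.22. The median interaction of the list was 0.11 over all libraries and 0.03 without the 3. Complement genes rose in 13 of 13 cases in both genotypes, with medians of 2.41 and 2.21, and lysosomal genes in 16 and 15 of 20, 15 in both.

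Reactive astrocyte genes were shared as well: 23 of 25 rose in labelled-knockout and 21 in Control cords, 21 in both, with medians of 1.75 and 1.76 and a median interaction of 0.19. Gfap, the intermediate filament of astrocytes, changed by 1.95 and 1.84 log2 units, Serpina3n, a serine protease inhibitor, by 3.76 and 3.32, and Vim, the filament protein vimentin, by 3.11 and 2.73. The interaction of Gfap was 0.10 ± 0.49 (SE) and that of Serpina3n 0.44 ± 0.31. Tm4sf1, a membrane protein, rose by 1.67 and 1.33, and Ptx3, a secreted pentraxin, by 1.75 and 1.40. Of 18 homeostatic astrocyte genes, 1 rose in labelled-knockout cords (the water channel gene Aqp4, 1.49, against 1.03 in Control cords) and 0 in Control cords. Without the 3 Control libraries 3 rose in each and 5 and 6 fell. Of all genes tested in that fit, 20.3% and 15.8% rose and 26.7% and 17.9% fell in labelled-knockout and Control cords. Dividing-cell genes had 9 and 10 of 17 called higher, 9 in both (14 and 14 without the 3 Control libraries), with Mki67 at 1.15 and 1.23 and Top2a at 1.19 and 1.29.

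**Figure D2:**
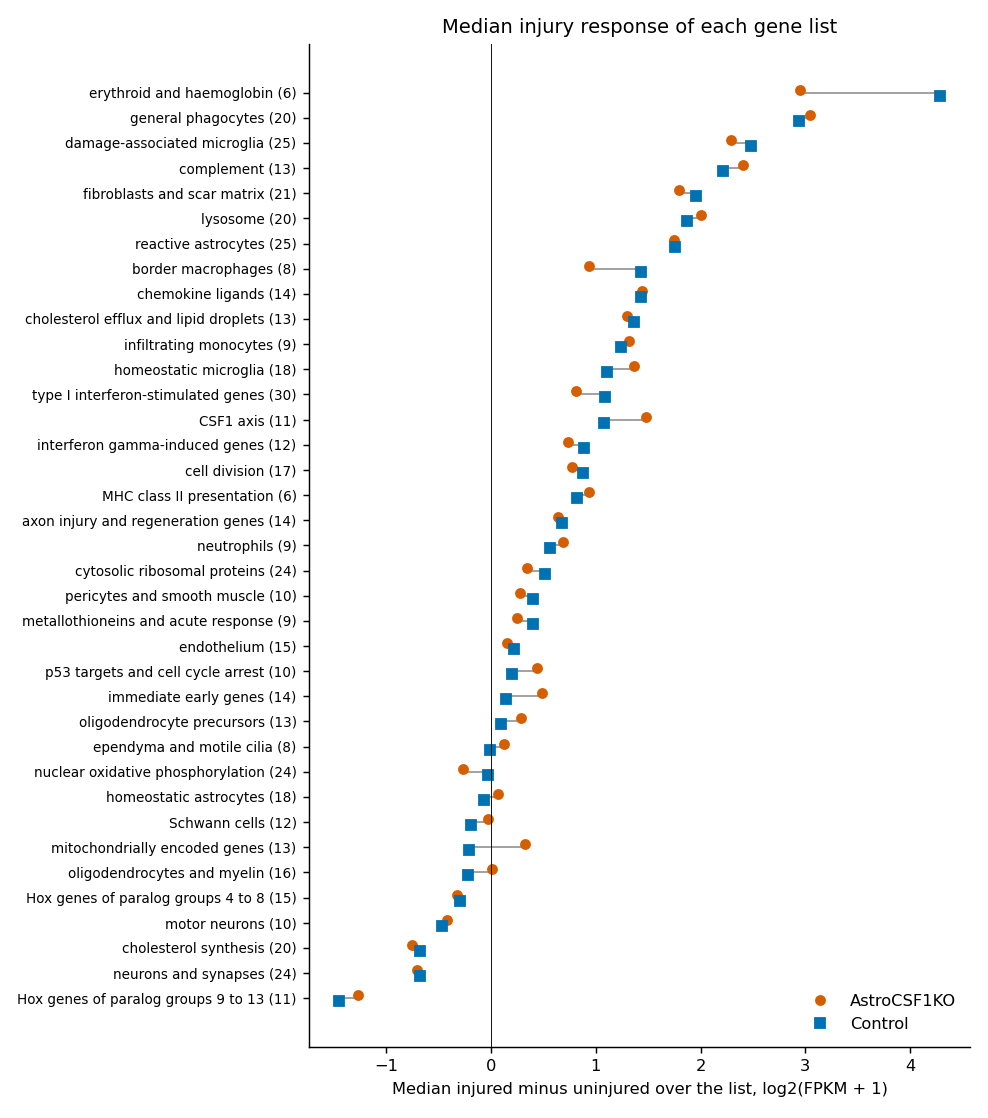
Median injury response, injured minus uninjured log2(FPKM + 1), of each gene list with at least 5 genes kept, in labelled-knockout (orange circles) and Control cords (blue squares); the number of genes kept is in brackets. General phagocytes have 3.04 and 2.94, Hox genes of paralog groups 9 to 13 have -1.27 and -1.45, and the widest gap is that of the 6 erythroid genes, 2.95 and 4.29.

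The falls common to both genotypes were led by Hox genes and by genes of neurons and of cholesterol synthesis. Hox genes encode the transcription factors that set position along the body axis, and those of the highest paralog groups are expressed towards the tail end of the cord. Hoxc12 had 0 reads in all 8 injured libraries, against 1.65, 2.98 and 3.74 FPKM in uninjured labelled-knockout and 1.21, 2.63 and 2.52 FPKM in uninjured Control cords. At a floor of 3 reads per library, 0.125 to 0.179 FPKM, it was at least 16.0-fold lower in injured labelled-knockout and at least 11.9-fold lower in injured Control cords; the floor covers counting error only. Hoxc11 and Hoxd11 were likewise at 0 reads in all injured libraries. Hoxd10 was at 0, 0.264, 0 and 0.0594 FPKM in injured and 4.83, 12.1 and 10.2 FPKM in uninjured labelled-knockout cords, and at 2.6, 0, 0 and 0 FPKM in injured and 33.9, 10 and 9.41 FPKM in uninjured Control cords. Of 11 kept Hox genes of groups 9 to 13, 5 fell in labelled-knockout and 7 in Control cords, 5 in both, with medians of -1.27 and -1.45 (-1.25 and -1.40 with groups at 0 set to the floor). The counts were 8, 8 and 8 without the 3 Control libraries. Hoxc9 was not called (0.19 and 0.02), and of 15 Hox genes of groups 4 to 8 none was called in either genotype, while 4 fell in labelled-knockout cords without the 3 Control libraries. In that fit 26.7% of all genes tested fell in labelled-knockout cords. Whether injured and uninjured segments were taken at the same level was not tested.

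Of 24 neuronal and synaptic genes, 4 fell in labelled-knockout and 5 in Control cords, 4 in both, with medians of -0.71 and -0.68 and a median interaction of -0.01. The counts were 20, 19 and 19 without the 3 Control libraries. Nefh, the heavy neurofilament chain, stood at 193, 251, 245 and 234 FPKM in injured and 345, 463 and 377 FPKM in uninjured labelled-knockout cords, against 255, 231, 197 and 212 FPKM in injured and 405, 438 and 427 FPKM in uninjured Control cords. Rph3a, a synaptic vesicle protein, changed by -1.09 and -1.08, and the glycine transporter gene Slc6a5 and the calcium pump gene Atp2b3 fell in both, with interactions of 0.11 and -0.08. Of 20 cholesterol synthesis genes, 6 fell in labelled-knockout and 5 in Control cords, 5 in both, with medians of -0.76 and -0.68 (18 and 17 without the 3 Control libraries, 16 in both). Sqle, squalene epoxidase, changed by -0.74 and -0.63, and Insig1, the endoplasmic reticulum anchor of the sterol sensor, by -1.17 and -1.05. Hsd11b1, which regenerates active glucocorticoid, changed by -1.19 and -1.28, and the cytoskeletal gene Ank1 by -1.05 and -0.97. For these named falls the estimated interactions lay between -0.11 and 0.39 log2 units, apart from those of Hoxc11, -0.46, and Hoxc12, -0.27.

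Among the 10 named genes with a higher response in labelled-knockout cords were 2 that injured neurons switch on, Sprr1a and Atf3, although neither interaction passed the adjustment. Sprr1a (ENSMUSG00000050359, chromosome 3, 92391259 to 92393202, minus strand), a small proline-rich protein that injured neurons switch on and that promotes axon growth in mice, stood at 97.2, 107, 106 and 92.8 FPKM in injured and 0.242, 0.786 and 0.702 FPKM in uninjured labelled-knockout cords. In Control cords it stood at 28.6, 56.3, 58.4 and 32.4 FPKM with injury and at 0, 0.602 and 0.365 FPKM without. All 4 injured labelled-knockout libraries lay above all 4 injured Control libraries, and the uninjured groups overlapped. How many of all genes tested are so separated between genotypes was not counted. Genes named for a small interaction p are likely to be separated, so the separation is not independent support. Sprr1a rose by 6.03 and 5.04 log2 units, and its interaction of 0.98 ± 0.37 (SE) had a 95% interval of 0.18 to 1.78, with an unadjusted limma p of 0.0202. Without the 3 Control libraries the interaction was 0.72 ± 0.20 (SE), and it kept its sign in all 27 alternatives, none of which called it. The alternatives mostly reuse the libraries by which Sprr1a was chosen, so the kept sign is not independent support. Atf3, a stress-induced transcription factor of the ATF/CREB family and a marker of axotomised neurons, stood at 17.8, 16.5, 16.1 and 15.9 FPKM in injured and 0.294, 0.566 and 0.597 FPKM in uninjured labelled-knockout cords, against 10.8, 13.1, 12.3 and 12.4 FPKM in injured and 0.809, 0.63 and 0.365 FPKM in uninjured Control cords. Here too the injured groups did not overlap. It rose by 3.57 and 3.05, with an interaction of 0.52 ± 0.19 (SE, unadjusted p = 0.0156).

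The promoter of Sprr1a is shown because ATF3 belongs to the same bZIP class as the AP-1 factors, which bind TGANTCA (N is any base). The 250 bases before its start (RefSeq, GRCm38.p6, chr3:92485882-92486131, minus strand, written 5′ to 3′ along the gene) hold that motif at 146 and 116 bases before the start, in capitals:
Sprr1a: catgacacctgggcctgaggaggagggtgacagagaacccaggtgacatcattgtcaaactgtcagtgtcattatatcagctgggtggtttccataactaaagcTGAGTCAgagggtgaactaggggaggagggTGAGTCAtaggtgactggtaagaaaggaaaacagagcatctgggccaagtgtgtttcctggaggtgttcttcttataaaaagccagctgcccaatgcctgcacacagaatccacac
The motif, searched on both strands, occurs in 6.75% of 32851 RefSeq promoter windows of that length and in 2 of 12 matched windows of the axon injury list. A match is a run of letters and not evidence of binding.

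Other genes of that list had smaller changes. Of 14 axon injury and regeneration genes kept, 3 rose in each genotype, 2 of them in both, and the median interaction was 0.14. The counts were 12, 9 and 9 and the median interaction -0.07 without the 3 Control libraries. Gadd45a, a stress gene of growth arrest, lay the other way (0.64 in labelled-knockout and 1.27 in Control cords, interaction -0.63 ± 0.31), and Sema6a, a semaphorin, at 0.22 and -0.10. Of 14 immediate early genes Atf3 alone rose over all libraries, in both genotypes, with Egr1 at 0.09 and -0.31 and Jun at 0.63 and 0.39; without the 3 Control libraries 8 and 7 rose, 7 in both.

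**Figure D3:**
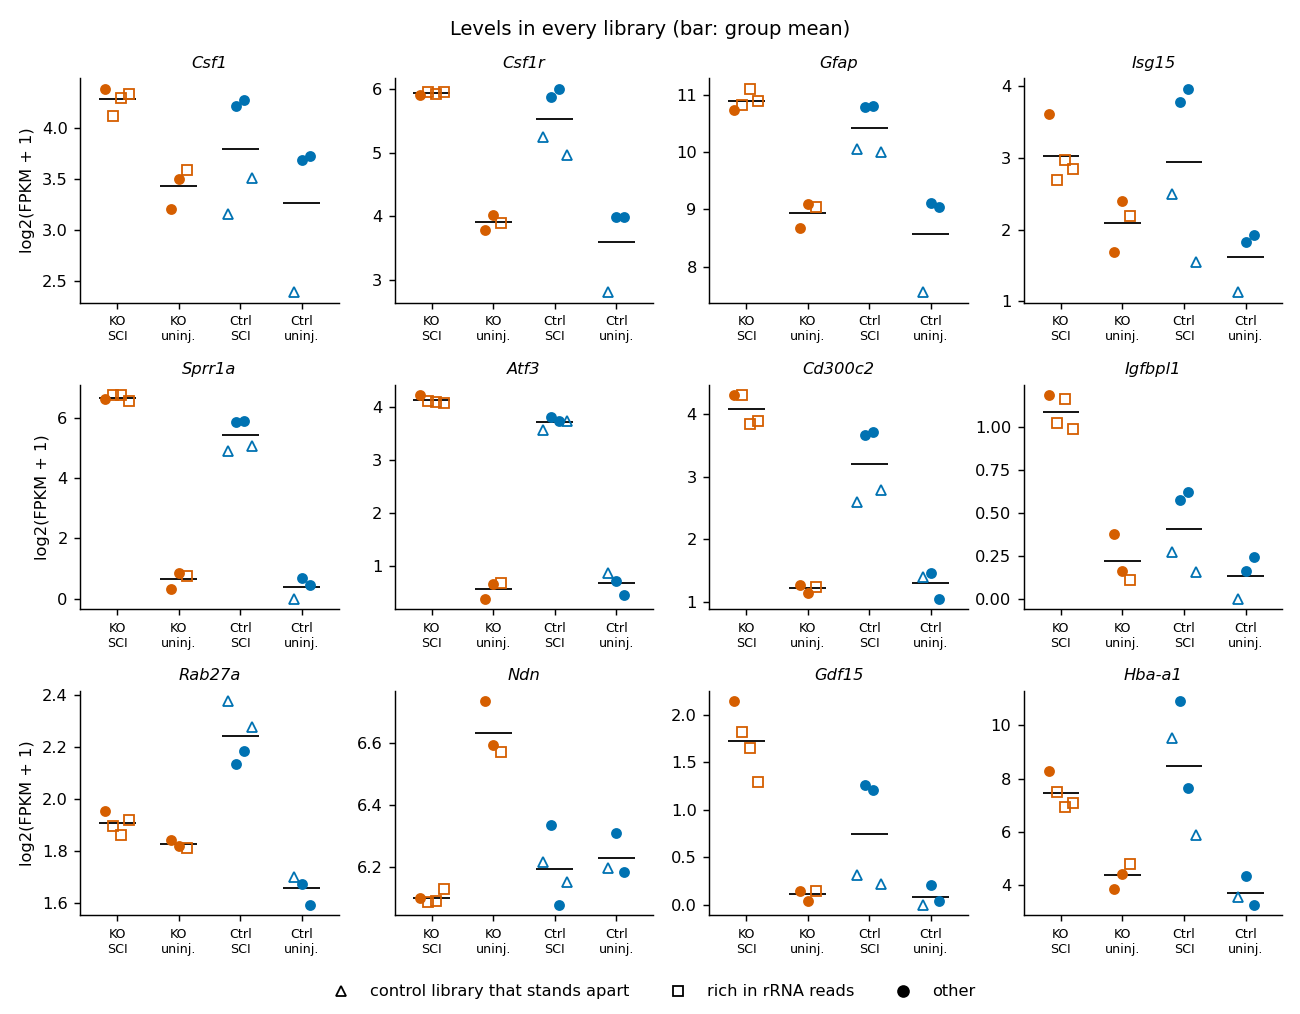
Log2(FPKM + 1) of 12 named genes in every library, labelled knockout in orange and Control in blue, injured left of uninjured, with bars at group means; open triangles mark the 3 Control libraries that stand apart and open squares the 4 libraries rich in rRNA reads. For Sprr1a, Atf3 and Cd300c2 all 4 injured labelled-knockout libraries lie above all 4 injured Control libraries, and for Rab27a the order is the reverse. These genes were named for small interaction p, and the share of all genes so separated was not counted.

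The other genes with a higher response in labelled-knockout cords were few and diverse. Cd300c2, an activating receptor of myeloid cells, stood at 18.6, 18.7, 13.4 and 13.8 FPKM in injured and 1.41, 1.22 and 1.37 FPKM in uninjured labelled-knockout cords, against 5.07, 11.7, 12.2 and 5.94 FPKM in injured and 1.63, 1.75 and 1.08 FPKM in uninjured Control cords. It rose by 2.86 and 1.89 with an interaction of 0.97 ± 0.37 (SE, unadjusted p = 0.0230), which was 0.42 without the 3 Control libraries. Gdf15, a secreted stress cytokine, rose by 1.61 in labelled-knockout cords and was not called in Control cords (0.67); its interaction was 0.95 ± 0.38, or 0.50 without the 3. Igfbpl1, related to insulin-like growth factor binding proteins, had 1.27, 1.03, 1.23 and 0.979 FPKM in injured labelled-knockout cords, against 0.207, 0.489, 0.535 and 0.114 FPKM in injured Control cords, and an interaction of 0.60 ± 0.21. Aldh1l2, a mitochondrial enzyme of folate metabolism, rose by 1.05 and 0.61 (interaction 0.44 ± 0.17), and the centrosomal gene Cdk5rap2 rose by 0.50 in labelled-knockout cords and was not called in Control cords (0.12; interaction 0.38 ± 0.15). The remaining higher ones by the rule, Snora41, SNORA21B, Mir1932, Mir874 and Snord71, are small-RNA loci of 76 to 132 bases with 0 to 6 reads in any library, too few to order.

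Among lower responses Rab27a had the smallest p of a protein-coding gene. This small GTPase, which directs secretory vesicles and lysosome-related organelles to the plasma membrane (ENSMUSG00000032202, chromosome 9, 72952136 to 73004911, plus strand), stood at 2.87, 2.72, 2.63 and 2.78 FPKM in injured and 2.59, 2.53 and 2.51 FPKM in uninjured labelled-knockout cords. In Control cords it stood at 4.19, 3.39, 3.54 and 3.84 FPKM with injury and 2.25, 2.19 and 2.01 FPKM without. The Control cords thus had both the highest injured and the lowest uninjured values, with no overlap of any pair of groups. The gene was named for its small interaction p, and how many genes are so separated was not counted. Rab27a was not called in labelled-knockout cords (0.08) and rose by 0.59 in Control cords, and its interaction was -0.50 ± 0.14 (SE), 95% interval -0.82 to -0.19, with an unadjusted limma p of 0.00414 and an adjusted p = 0.9999852. It was -0.44 without the 3 Control libraries and -0.40 with both sets left out. Ndn, the imprinted gene of necdin, fell by 0.53 on the log2 scale in labelled-knockout cords and stood at -0.03 in Control cords, where it was not called. Its levels were 67.6, 67, 67.1 and 68.9 FPKM in injured and 106, 95.6 and 94.1 FPKM in uninjured labelled-knockout cords, against 73.4, 79.7, 66.5 and 70 FPKM in injured and 72.4, 78.3 and 71.7 FPKM in uninjured Control cords, so that the uninjured labelled-knockout libraries stood above all others.

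Agk, a mitochondrial lipid kinase, was similar, with a fall in labelled-knockout cords (-0.47) and no call in Control cords (-0.10). Med10, a subunit of Mediator, was not called in labelled-knockout cords (0.09) and rose in Control cords (0.58), with 1 uninjured labelled-knockout library at 4.31 FPKM, above all 4 injured ones. Neither genotype had a call for Cytl1 (-0.30 and 0.90), Cabcoco1 (-0.17 and 0.79), Ascc1 (-0.01 and 0.46) and Fam177a2 (-0.48 and 0.36), the last of which has a near copy among which reads may be split. The miRNA locus Mir8102 had 0 to 7 reads in any library. Of the 91 genes with an unadjusted p under 0.05, 34 are protein coding, and 8 are among the 830 shared responses.

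**Figure D4:**
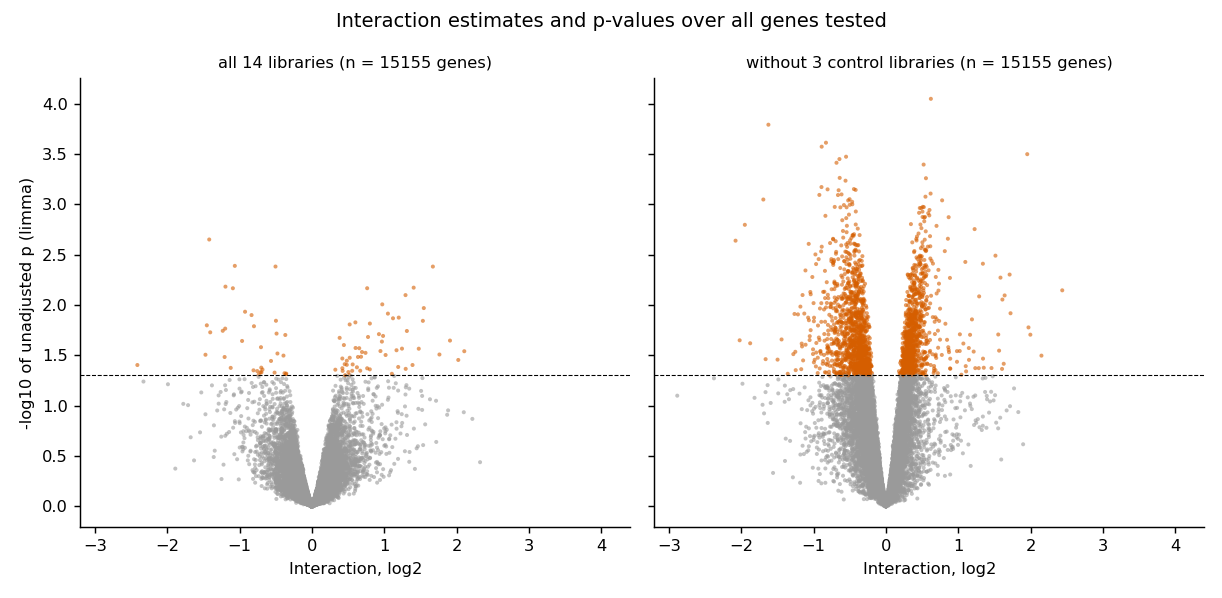
Interaction (horizontal, labelled-knockout response minus Control response, log2) against -log10 of its unadjusted limma p for 15155 genes, with all 14 libraries (left) and without the 3 Control libraries that stand apart (right). Points above the dashed line number 91 on the left and 2158 on the right, and 0 pass the adjustment in either.

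Interferon-stimulated genes had mostly negative interactions, none of them called. Ifnb1 itself had 0 reads in all libraries. Of 30 type I interferon-stimulated genes kept, 15 rose in labelled-knockout and 18 in Control cords, 14 in both, with medians of 0.81 and 1.09. These counts were 29, 28 and 28 without the 3 Control libraries. Over all libraries the interaction was negative for 27 of 30 and above 0 for the other 3, against 53.1% above 0 among all genes tested; its median was -0.17, and 0 of 30 had an unadjusted p under 0.05. Rsad2, the antiviral enzyme viperin, stood at 1.56, 0.872, 1.22 and 1.16 FPKM in injured and 0.281, 0.63 and 0.368 FPKM in uninjured labelled-knockout cords, against 4.32, 3.18, 1.56 and 1.9 FPKM in injured and 0.479, 0.358 and 0.566 FPKM in uninjured Control cords. It was not called in labelled-knockout cords (0.63) and rose in Control cords (1.29), with an interaction of -0.66 ± 0.32 (SE, unadjusted p = 0.0585). Oasl2, of the oligoadenylate synthetase family, rose in both, to 2.93, 2.47, 3.08 and 2.81 FPKM in injured labelled-knockout cords and 3.05, 4.2, 4.34 and 6.91 FPKM in injured Control cords (interaction -0.55 ± 0.26). Ifi204 and Ifi207, of the interferon-inducible p200 family, rose by 1.42 and 1.65 in labelled-knockout and by 1.85 and 2.12 in Control cords. Irf7, the transcription factor that amplifies the response, was not called in labelled-knockout cords (0.83) and rose in Control cords (1.03).

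Isg15, a ubiquitin-like protein, stood at 11.2, 5.46, 6.82 and 6.22 FPKM in injured and 2.22, 4.3 and 3.59 FPKM in uninjured labelled-knockout cords, against 4.63, 12.8, 14.6 and 1.93 FPKM in injured and 1.18, 2.55 and 2.79 FPKM in uninjured Control cords. The lowest injured Control values belong to SCI replicates 4 and 1, which stand apart. Neither genotype passed the test (0.93 and 1.32), and its interaction was -0.39 ± 0.70 (SE), or -1.06 ± 0.36 without the 3 Control libraries. Ifit3, which restrains viral RNA, rose by 1.16 and 1.36. Both promoters (RefSeq, GRCm38.p6, 250 bases before the start, 5′ to 3′ along the gene) are shown because they hold the interferon response element searched for, in capitals: TTTC, any 2 bases and TTTC again, on either strand. Isg15 (chr4:156200819-156201068, minus strand) has 3 overlapping matches, from 78 to 66 bases before the start, and Ifit3 (chr19:34583279-34583528, plus strand) has 2, at 156 and 122 bases:
Isg15: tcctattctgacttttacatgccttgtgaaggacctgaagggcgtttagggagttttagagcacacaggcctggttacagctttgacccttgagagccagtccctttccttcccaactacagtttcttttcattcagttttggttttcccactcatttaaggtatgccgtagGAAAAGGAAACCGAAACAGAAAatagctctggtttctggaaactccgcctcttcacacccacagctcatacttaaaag
Ifit3: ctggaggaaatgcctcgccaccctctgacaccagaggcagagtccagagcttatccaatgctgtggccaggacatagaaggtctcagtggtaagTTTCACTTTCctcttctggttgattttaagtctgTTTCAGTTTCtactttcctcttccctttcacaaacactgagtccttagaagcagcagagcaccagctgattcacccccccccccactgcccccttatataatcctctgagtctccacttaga
The motif occurs in 13 of 25 matched windows of the list (52%) and in 2.98% of all 32851 windows, which describes the list and not these samples.

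The negative direction of the list depended on which labelled-knockout libraries were used. Its mean log2 level was 2.51 in injured labelled-knockout replicate 1 and 2.21 to 2.25 in replicates 2, 3 and 4, the 3 rich in rRNA reads. The median interaction was -0.14 without the 3 Control libraries, -0.03 with both sets left out and 0.05 without the 4 rRNA-rich libraries. Fits without the 4 keep only replicate 1 of the injured labelled-knockout libraries. Genes induced by interferon gamma went the same way: 6 of 12 rose in labelled-knockout and 8 in Control cords, with medians of 0.74 and 0.89 (11 and 11 without the 3 Control libraries), and their median interaction was -0.14 over all libraries and 0.09 without the 4. The chemokine gene Ccl12, which attracts monocytes, rose by 2.09 and 3.09 (interaction -1.01 ± 0.57), and Ccl8 was not called in labelled-knockout cords (0.59) and rose in Control cords (1.26).

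Scar matrix genes followed the same libraries. Of 21 kept, 15 rose in labelled-knockout and 16 in Control cords, 15 in both, with medians of 1.79 and 1.96, and the interaction was negative for 19 of 21 with a median of -0.20. Postn, the matrix protein periostin, stood at 6.67, 2.98, 3.17 and 1.77 FPKM in injured and 0.162, 0.291 and 0.118 FPKM in uninjured labelled-knockout cords, against 5.03, 3.98, 21.5 and 14 FPKM in injured and 0.649, 0.117 and 0.0846 FPKM in uninjured Control cords. It rose by 1.87 and 2.99, with an interaction of -1.13 ± 0.67 (SE). Col3a1, a fibrillar collagen, stood at 89.6, 35.8, 26.5 and 24.5 FPKM in injured labelled-knockout cords, against 23, 52.9, 169 and 63.3 FPKM in injured Control cords, where replicate 3 is the highest. Its interaction was -0.48 ± 0.86. Across the list the mean log2 level was 4.75 in injured labelled-knockout replicate 1 and 3.71 to 3.80 in the other 3. The median interaction was -0.55 without the 3 Control libraries, 0.31 without the 4 rRNA-rich libraries and 0.03 without both. The latter values rest on replicate 1 alone among injured labelled-knockout libraries.

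Haemoglobin and other erythroid genes, which mark blood in the tissue, had the largest median difference of any list. Of 6 kept, 2 rose in labelled-knockout and 5 in Control cords, 2 in both, with medians of 2.95 and 4.29 and interactions below 0 for 6 of 6 (median -1.38). The counts were 5, 5 and 5 and the median interaction -1.65 without the 3 Control libraries. Hba-a1 stood at 312, 182, 121 and 135 FPKM in injured and 13.8, 20.7 and 26.8 FPKM in uninjured labelled-knockout cords, against 737, 1918, 199 and 58.7 FPKM in injured and 10.9, 19.5 and 8.64 FPKM in uninjured Control cords. The injured Control libraries thus spanned the injured labelled-knockout ones, and the interaction was -1.68 ± 1.25 (SE). Alas2, the erythroid enzyme of haem synthesis, stood at 5.4, 3.99, 2.93 and 2.76 FPKM in injured labelled-knockout cords, against 41.9, 34.4, 3.83 and 3.87 FPKM in injured Control cords, with an interaction of -1.71 ± 0.96. Hba-a2 (-1.55) and Hbb-bt (-1.22) had the same sign; reads of haemoglobin copies may be divided among them. Summed over the list, levels were 341 to 759 FPKM in injured and 55.1 to 89.1 FPKM in uninjured labelled-knockout cords, against 187 to 4015 FPKM in injured and 49.3 to 68.3 FPKM in uninjured Control cords. The part of blood left in the tissue in other interactions was not tested.

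Markers of blood leukocytes other than monocytes gave little. Of 16 T and NK cell genes 2 were kept, with 0 called in either genotype and summed levels of 3.09 to 3.73 FPKM in injured labelled-knockout and 1.81 to 3.32 FPKM in injured Control cords. Of 9 neutrophil genes kept 1 rose in both, Csf3r, and 1 fell in labelled-knockout cords alone, Mmp9 (-0.99, against -0.83 in Control cords). S100a8 lay at 1.30 and 0.60 log2 units (interaction 0.70 ± 0.62, or -0.11 without the 3 Control libraries). Infiltrating monocyte genes had 6 and 7 of 9 called higher, 6 in both, among them the matrix gene Fn1 at 2.53 and 2.79. Of 8 border macrophage genes 4 rose in both (4 and 7 without the 3 Control libraries); Lyve1, a hyaluronan receptor of border and vessel macrophages, was called in neither (0.47 and 1.14), and Pf4, platelet factor 4, rose by 2.59 and 1.95.

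**Figure D5:**
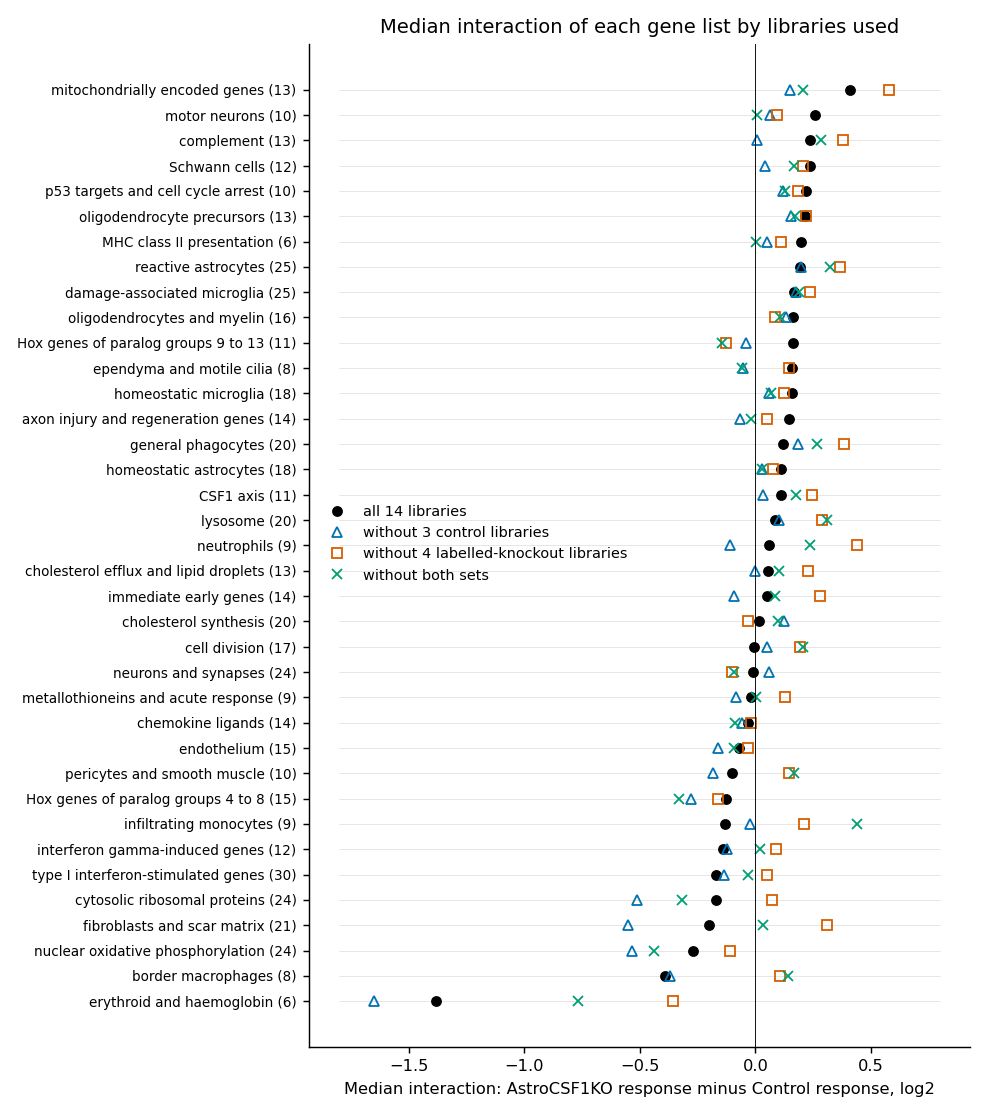
Median interaction of each gene list with at least 5 genes kept, over all 14 libraries (black), without the 3 Control libraries that stand apart (triangles), without the 4 labelled-knockout libraries rich in rRNA reads (squares) and without both (crosses). The scar matrix list is at -0.20, -0.55, 0.31 and 0.03, and the reactive astrocyte list at 0.19, 0.20, 0.37 and 0.32. Squares and crosses rest on replicate 1 alone among injured labelled-knockout libraries.

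Gene length moved with the interaction, mainly in the fit without the 3 Control libraries. In that fit, the 960 genes with a higher response in labelled-knockout cords at an unadjusted p under 0.05 had a median gene length of 7804.5 bases and the 1198 with a lower response one of 2521 bases, against 4012 over all genes tested. Over all 14 libraries the 56 higher and 35 lower genes at that threshold were both short, with medians of 858 and 1056 bases. Over 4 length classes of about equal size, from shortest to longest (27 to 2252, 2253 to 4012, 4013 to 6460 and 6461 to 41619 bases), the median interaction was -0.18, -0.10, -0.00 and 0.12 log2 units without the 3, and -0.05, -0.02, 0.02 and 0.07 over all 14 libraries. In the fit without the 3, the median response by class was 0.14, 0.04, -0.05 and -0.14 in Control cords; in labelled-knockout cords, whose libraries are the same in both fits, it was -0.01, -0.05, -0.05 and -0.02. The part of length in the interactions was not tested. In the fit without the 3, sex and injury coincide among the Control libraries. Of 24 nuclear oxidative phosphorylation genes 22 had a negative interaction, with a median of -0.27 (-0.54 without the 3), as Ndufa1, a complex I subunit, at -0.79 ± 0.56 (SE). The mean log2 level of this list was 6.21 and 5.25 in Control uninjured replicates 2 and 3. It was 6.13 and 5.94 in Control SCI replicates 2 and 3, below uninjured replicate 2 and above uninjured replicate 3. The value of -0.54 thus depends on Control uninjured replicate 3. Of 24 cytosolic ribosomal protein genes 23 were negative, with a median of -0.17 (-0.51 without the 3, 0.07 without the 4 rRNA-rich libraries), as Rpl41 at -0.67 ± 0.57. None of these 48 genes was called in either genotype over all libraries. Without the 3, 4 and 19 ribosomal protein genes rose and 2 and 0 oxidative phosphorylation genes fell in labelled-knockout and Control cords. Over all genes tested there, 20.3% and 15.8% rose and 26.7% and 17.9% fell. The mean log2 level of the ribosomal protein list was 6.13 and 5.23 in Control uninjured replicates 2 and 3. It was 6.53 and 6.49 in Control SCI replicates 2 and 3, so the size of that Control rise depends on uninjured replicate 3. The 13 mitochondrially encoded genes lay the other way, 12 of them positive with a median of 0.41, or 0.15 without the 3; mt-Nd6, on the light strand, was at 0.91 ± 0.45.

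Of 16 oligodendrocyte and myelin genes 0 were called in either genotype over all libraries. Without the 3 Control libraries 2 rose and 2 fell in labelled-knockout cords, and 1 rose and 5 fell in Control cords. Among all genes tested in that fit, 20.3% rose and 26.7% fell in labelled-knockout cords, and 15.8% rose and 17.9% fell in Control cords. Over all libraries 15 had a positive interaction with a median of 0.16, and Myrf, the transcription factor of myelin genes, stood at 26.6, 24.5, 29 and 27.2 FPKM in injured and 26.7, 27.7 and 26 FPKM in uninjured labelled-knockout cords, against 6.33, 25.4, 25.9 and 5.43 FPKM in injured and 4.53, 31.9 and 34.6 FPKM in uninjured Control cords. The 3 lowest values are those of the libraries that stand apart. Of 13 oligodendrocyte precursor genes 2 rose in labelled-knockout and 1 in Control cords (7 and 2 without the 3, with 4 and 3 falls); Tnr, a matrix protein of these cells, rose in labelled-knockout cords (0.82) and was not called in Control cords (0.41), with an interaction of 0.41 ± 0.30, or 0.78 ± 0.17 without the 3. Its neighbour on the list Ptprz1, a receptor phosphatase, is 1 of 15 genes that were called with opposite signs in the 2 genotypes once the 3 Control libraries were left out (0.21 in labelled-knockout and -0.41 in Control cords). The first of those 15 by p was Gfra1, the receptor of glial cell line-derived neurotrophic factor, chosen after its values were seen. It stood at 17.2, 16.3, 16.1 and 18.0 FPKM in injured and 13.7, 14.8 and 13.4 FPKM in uninjured labelled-knockout cords. In the Control libraries of that fit it stood at 13.8 and 14.2 FPKM with injury and 17.7 and 18.9 FPKM without, while the 3 that stand apart had 19.2 and 19.6 FPKM with injury and 20.2 FPKM without. Its interaction was 0.62 ± 0.10 (SE) in that fit, with an adjusted p = 0.310, and 0.44 over all libraries. For all 15 genes, sex and injury coincide among the Control libraries of that fit.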

How the data were processed

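RNA of 14 spinal cord samples was sequenced after poly(A) selection in paired ends, without keeping strand, per the labels' protocols. Per the submitters' processing notes, CASAVA 1.8 and HISAT2 on mm39 were used; no source used here names the counting program or the annotation. The authors deposited FPKM values with gene lengths and mm39 positions. Reads of overlapping genes on opposite strands are mixed. Reads were recovered as FPKM times length over the smallest such product per library (100% whole within 0.01) and used for depth, floors of 3 reads and voom; depth limits low genes, and reads carry no molecular identifiers.

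The analysis used log2(FPKM + 1) of genes that reached 1 FPKM in 3 or more libraries. Limma 3.58.1 (R 4.3.3) fitted 1 mean per group over all 14 libraries with an intensity trend, two-sided, and Benjamini-Hochberg adjustment over 15155 genes. The spread is thus shared between genotypes, though Control libraries vary more. The labels do not say that samples come from separate animals, so p-values measure only the spread between these samples, which may be technical. The fit was tested on simulated data with independent noise and the same spread in every group, at most the median spread over genes. The simulation therefore did not test the fit under the larger spread of the Control groups.

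Genes named are a fixed set of 8, the 10 smallest interaction p in each direction, the 10 largest shared rises and falls, the 5 highest and lowest interactions among called genes (predicted genes left out), and up to 4 per list by smallest interaction p; a few others illustrate their list and were chosen after their values were seen. Some genes that the rule names are not reported here. A total of 614 genes in 40 lists were used, 523 of them kept. The members, lists, named genes and alternatives were chosen with earlier results of these data known. RefSeq promoter windows were matched by symbol and use GRCm38.p6, while gene positions are mm39.

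Replicate numbers were checked for pairing by correlating, across genes, the deviations of same-numbered libraries from their group means. These were 0.616, 0.832 and 0.733 between Control SCI and Control uninjured, all over 0.1, the bound set for a pairing. Libraries of different number correlated as highly, SCI 4 with uninjured 1 at 0.831, SCI 3 with uninjured 2 at 0.812 and SCI 2 with uninjured 3 at 0.708, where both or neither stand apart, so the values do not show that the numbers mark pairs. Between labelled-knockout groups they were -0.147 to 0.206, and between genotypes -0.342 to 0.0673, so the numbers do not pair the other groups. The fit with a replicate block was an alternative, as were another pseudocount, filters, scalings, voom, array weights, no trend, a sex term, fits within a genotype, and leaving out each library and each set of libraries.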

Additional observations from a re-analysis of the deposited data

Results flagged for a closer look

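A library was far from the other 3 of its group, by Dixon's test at 95%, in 5 of 80 list scores tested within the injured groups (a score is the mean log2(FPKM + 1) of a list in a library) and in 0 of 16 tests of single genes; chance alone gives about 1 in 20. In injured labelled-knockout cords, replicate 1 had a type I interferon-stimulated score of 2.51, against 2.21 to 2.25 in the others, and a scar matrix score of 4.75, against 3.71 to 3.80. Replicate 4 of that group had a T and NK cell score of 1.48, against 1.32 to 1.34, and a nuclear oxidative phosphorylation score of 6.18, against 6.06 to 6.08. In injured Control cords, replicate 4 had a cell division score of 1.81, against 1.51 to 1.56; it is 1 of the 3 Control libraries that stand apart. Replicate 1 is the only injured labelled-knockout library that is not rich in rRNA reads.

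With both sets of libraries left out, 4 genes passed the test of the interaction: Xist at 4.23 (adjusted p = 0.00999), Gm49980 at 3.78 (0.00798), Ddx3y at -3.64 (0.00798) and Eif2s3y at -2.57 (0.00798), by limma. Over all 14 libraries the same genes had 2.32, 1.31, -1.89 and -1.25, none of them called. Xist was at most 0.0053 FPKM in the 3 labelled-knockout libraries of that fit and 15.2 and 20.6 FPKM in its 2 uninjured Control libraries. The sexes differ between its groups, so sex and the interaction cannot be told apart. Gm49980 is a long noncoding RNA at 6.87 FPKM in the injured labelled-knockout library and 10.1 and 7.84 FPKM in the uninjured Control libraries of that fit.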

How the results depend on the processing

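No interaction was called in any alternative over many genes except with both sets of libraries left out (4). Calls on injury, for labelled-knockout cords, Control cords and both in the same direction, were 677, 610 and 497 with a filter of 5 FPKM, 8494, 2779 and 2667 with array weights, 7126, 5106 and 4085 without the 3 Control libraries that stand apart, 89, 377 and 88 without the 4 rRNA-rich libraries, and 3795, 4648 and 3073 without both. With only the libraries of each genotype they were 6943, 158 and 157. Shared changes of at least 1 log2 unit in both numbered 420. Intervals of the interaction within 1 log2 unit numbered 5222 with a pseudocount of 0.1, 26927 without a filter, 4349 with the filter of 5 FPKM, 5114 with voom, 13021 with array weights, 13137 without the 3, 2456 without the 4 and 12738 without both; filters change the number of genes tested, and for the others the cause was not tested.

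Leaving out each library in turn gave 593 to 1646 labelled-knockout calls, 638 to 1702 Control calls, 525 to 1040 shared calls, 6474 to 7853 such intervals and 0 to 0 interactions. Labelled-knockout calls moved by over 1.5 times without SCI replicate 1 (743), uninjured replicates 1, 2 and 3 (593, 641 and 607) of that genotype; shared calls without those 3 uninjured libraries were 525, 541 and 536. Control calls were 638 without Control uninjured replicate 3 and 1702 without replicate 1. The Csf1 interaction ranged from 0.10 to 0.77, the highest, without Control uninjured replicate 1, being the only one past the threshold of its exact permutation test. Without all 3 Control libraries that stand apart it was 0.31 (exact permutation p = 0.113).

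With the replicate block the counts were 872, 808 and 642, with 8639 intervals and 0 interactions, but falls numbered 160, 146 and 86, against 305, 284 and 184 without it, a change of over 1.5 times; it changed no other count by that much. Falls also moved when 1 library was left out, to 78 to 579 in labelled-knockout cords, 97 to 762 in Control cords and 69 to 346 in both. The lowest were without labelled-knockout uninjured replicate 1 (78 and 69) and Control uninjured replicate 3 (97), and the highest without Control uninjured replicate 1. Of 53 named genes 30 kept the sign of their interaction in all alternatives run, and of 40 lists 9 did. The alternatives mostly reuse the same libraries, and many of the genes were named by their interaction in them. Depth limits the small-RNA loci and genes near 1 FPKM.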
